A study of Mus musculus with 4 samples.

Results

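The genes described here are 6 neurotrophin system genes: the ligand genes Bdnf and Ntf3, the receptor tyrosine kinase genes Ntrk2 (TrkB) and Ntrk3 (TrkC), the p75 receptor gene Ngfr, and the sorting receptor gene Sort1 (sortilin). They were chosen by symbol, though with earlier results of these data known. All 6 are listed among the 21883 features of both deposited tables. RNA was sequenced from young adult male wild-type mice of strain BL6/C57, 7 days after transection of the sciatic and femoral nerves on the left side. There were 4 libraries, 1 each from ipsilateral lumbar dorsal root ganglia (DRG, levels L4 to L6), contralateral DRG, ipsilateral lumbar dorsal cord and contralateral lumbar dorsal cord. Every library, the contralateral ones included, came from operated animals, so no uninjured mouse serves as a control. The sources used here do not say how many animals went into each library. With 1 library per group there is no spread between animals and no test of the conditions, and in these bulk samples fewer cells of a type cannot be told apart from less RNA per cell.

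Neurotrophins are secreted growth factors that keep neurons alive and shape their synapses. They are made as precursors, cut to mature dimers, and signal through Trk kinases, with BDNF preferring TrkB and NT-3 preferring TrkC, while p75 binds all of them and, together with sortilin, binds the uncut precursors. In sensory ganglia TrkC marks many large afferents that serve muscle sense, and TrkB marks some touch afferents. BDNF made by sensory neurons is carried to their terminals in the dorsal horn, where many neurons and astrocytes express TrkB. The astrocyte form lacks the kinase part, and a value per gene cannot separate it from the full form.

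Levels are in FPKM, the unit of the deposited tables, which divides a gene's fragments by transcript length and by the library's mapped total. It is corrected for length, so genes can be set side by side within a library. The 2 tables were normalised separately, so levels set across tissues are approximate. A fold is the ipsilateral FPKM over the contralateral FPKM, and its 95% interval uses the standard error implied by the test statistic in the authors' deposited table. That interval covers the error assigned to the 2 libraries and leaves out variation between animals. A log2 ratio is the log2 of ipsilateral over contralateral after adding 1 FPKM to both, which understates differences of low genes. Counts of genes at least 2-fold different use the log2 ratio, past 1 or -1, unless stated. A gene is called measured in a tissue if at least 1 of its libraries lists it at 1 FPKM or higher. Of all measured features, 43.9% had a log2 ratio below 0 in DRG and 48.4% in cord. Counts of listed genes above or below 0 are to be read beside these shares.

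In outline, Ntrk3 was lower on the cut side in both tissues, by about the same fold. In DRG, Ngfr and Bdnf were also lower on the cut side, though the interval for Ngfr just reached equal levels. In cord Bdnf was even and Ngfr was barely above 1 FPKM. Ntrk2 and Sort1 stayed near even in both tissues. Ntf3 was listed under 1 FPKM in all 4 libraries. Of the 5 measured members, 0 were at least 2-fold higher or lower in DRG, where 3.83% of all measured features were. In cord 0 of the 5 measured members were 2-fold different, against 6.1% of measured features. The authors' deposited table calls 0 of the 6 members in either tissue, where it calls 6.55% of tested features in DRG and 6.06% in cord. In the intervals of the fold, 2 members in DRG (Bdnf and Ntrk3) and 1 in cord (Ntrk3) lay wholly below equal levels. The share of tested, measured features with such an interval was 6.34% in DRG and 7.99% in cord, and 0 members had one wholly above, where 10.1% and 12.4% of features did.

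**Figure D1:**
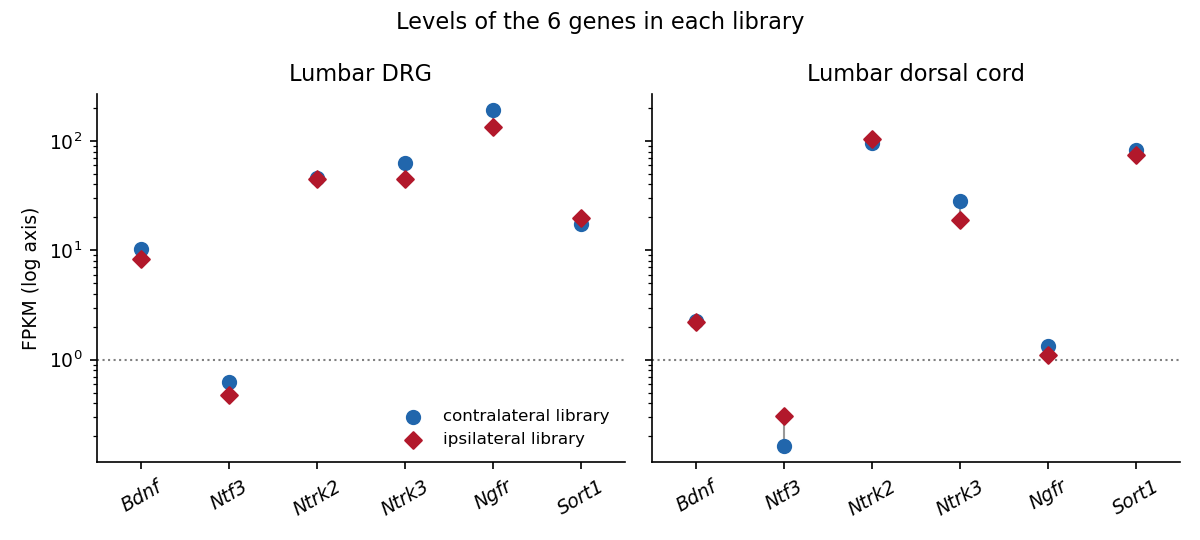
FPKM of the 6 genes (log axis) in the contralateral library (circles) and the ipsilateral library (diamonds) of lumbar DRG and lumbar dorsal cord, 1 library each, with a dotted line at 1 FPKM. Ngfr leads in DRG at 191 and 134 FPKM and sits just above 1 FPKM in cord, where Ntrk2 and Sort1 lead.

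Bdnf encodes brain-derived neurotrophic factor and lies on mm9 chromosome 2, from 109514856 to 109567200 as the deposited tables give it. It is transcribed from several start sites that all splice to a shared coding exon, and the FPKM sums over them. RefSeq promoter windows on GRCm38.p6, a different build from that of the tables, were available for 4 of the 6 genes, and Bdnf has 7 of their 11 windows. Over the 250 bases before each start, both strands were searched for the cAMP response element TGACGTCA and for the related heptamer CACGTCA. The heptamer was picked after the windows were seen and shares its last 6 letters with that element. The pattern TGANTCA was also searched, which is looser than the AP-1 element, since that has C or G at N. TGACGTCA was in none of the 11 windows and in 1.55% of all 32851 windows. The 2 windows below are shown because they are the ones among the 11 that hold a match, and capitals mark it. The first holds CACGTCA at position -37 from the start (1.65% of all windows hold it). The second holds TGAATCA, which fits the looser pattern but not the AP-1 element, at position -152 (6.75% hold a TGANTCA match). Both lie on the plus strand inside the Bdnf gene and outside its annotated exons in GENCODE vM21. A match is a string of letters and shows no binding, and these data do not separate the starts.
Bdnf, chr2:109692186-109692435: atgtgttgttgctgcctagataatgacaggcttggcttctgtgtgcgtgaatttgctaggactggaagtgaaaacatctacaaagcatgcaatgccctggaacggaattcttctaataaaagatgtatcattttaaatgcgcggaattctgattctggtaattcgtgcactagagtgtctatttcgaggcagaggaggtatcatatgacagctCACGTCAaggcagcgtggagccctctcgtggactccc
Bdnf, chr2:109676782-109677031: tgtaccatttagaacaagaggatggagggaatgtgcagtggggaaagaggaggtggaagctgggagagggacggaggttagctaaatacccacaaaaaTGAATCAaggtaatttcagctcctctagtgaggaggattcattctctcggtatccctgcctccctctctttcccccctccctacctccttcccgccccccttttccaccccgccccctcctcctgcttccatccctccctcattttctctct

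Bdnf stood at 10.3 FPKM in contralateral DRG and 8.30 in ipsilateral DRG. The cut side was thus lower, with a fold of 0.807 and an interval of 0.659 to 0.988. The log2 ratio of -0.28 was higher than that of 15.8% of measured features. The authors' deposited table gives q = 0.252 for Bdnf in DRG and does not call it.

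In dorsal cord Bdnf was at 2.24 FPKM contralaterally and 2.22 ipsilaterally, nearly the same value. The fold of 0.991 had an interval of 0.666 to 1.47, so differences of that size in either direction are within its error. Microglia are one cell type discussed as a source of BDNF after nerve injury. In the same cord libraries the summed FPKM of 10 microglia and macrophage markers was 266 ipsilaterally and 61.6 contralaterally, with 7 of the 8 measured markers at least 2-fold higher and Aif1, the Iba1 gene, at 40.5 against 3.26 FPKM. The part of these cells in the Bdnf level was not tested.

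Ntf3 encodes neurotrophin-3, the main ligand of TrkC, and lies on mm9 chromosome 6 from 126051429 to 126116762. It was at 0.63 FPKM contralaterally and 0.48 ipsilaterally in DRG, and at 0.16 contralaterally and 0.31 ipsilaterally in cord. All 4 values are under 1 FPKM, and the authors' deposited table marks the gene as not tested in both tissues. The interval of the fold ran from 0.254 to 2.27 in DRG and from 0.299 to 11.7 in cord. These values are too imprecise to say whether the sides differ. Within each library Bdnf exceeded Ntf3, by 16.4-fold in contralateral and 17.5-fold in ipsilateral DRG, and by 13.7-fold in contralateral and 7.24-fold in ipsilateral cord.

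Ntrk3, the TrkC gene (mm9 chromosome 7, 85336999 to 85722724), was at 63.5 FPKM in contralateral DRG and 44.6 in ipsilateral DRG. In dorsal cord it was at 28.3 FPKM contralaterally and 18.8 ipsilaterally. The ipsilateral library was the lower one in both tissues, with a fold of 0.703 (interval 0.508 to 0.973) in DRG and 0.665 (0.507 to 0.872) in cord. The log2 ratios were -0.50 and -0.56, and their difference between the tissues, without the added FPKM, was 0.08 with an interval of -0.53 to 0.69. The authors' deposited table gives Ntrk3 q = 0.237 in DRG and q = 0.0516 in cord and calls it in neither.

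The DRG and cord tables share no library. Whether both tissues came from the same animals is not known here, so the comparisons may not be independent. Of 12229 features measured in both tissues, 91 (0.744%) had log2 ratios as low as those of Ntrk3 or lower in both. Of 12064 features tested in both, 80 (0.663%) had an interval wholly below equal levels in both, Ntrk3 among them. These shares describe where Ntrk3 lies and were computed after its values were known.

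**Figure D2:**
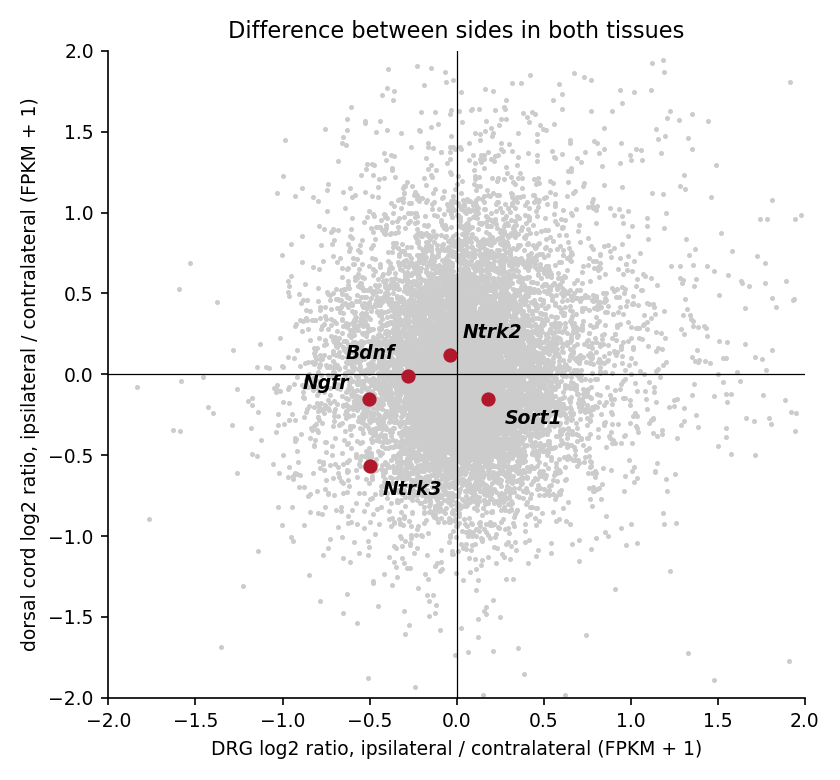
Log2 ratio of ipsilateral to contralateral FPKM (1 FPKM added) in DRG (x axis) and dorsal cord (y axis) for 12123 features measured in both tissues (grey; 106 more lie outside the axes) and the 5 measured members (red). Ntrk3 lies at -0.50 and -0.56, in the lower left of the cloud, and Ntrk2 near the centre.

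Genes of large afferents and of nociceptors were mostly lower beside Ntrk3 in DRG. Of 7 measured genes of proprioceptors and other large afferents, 6 were below 0, with a median log2 ratio of -0.67 against 0.05 for all measured features, and 0 of the 7 were past 2-fold. Their summed level was 2940 FPKM ipsilaterally and 4592 contralaterally. The highest were the neurofilament genes Nefm, at 2155 against 3370 FPKM, and Nefh, at 609.9 against 989.8, followed by Pvalb, the parvalbumin gene of proprioceptors, at 65.03 against 102. Spp1 was the 1 gene above 0, at 72.0 against 63.6. Nociceptor genes were as low by their median of -0.68, with 6 of 7 below 0 and 0 past 2-fold. Of all measured features 3.83% were past 2-fold. The summed level of the nociceptor genes was 673 FPKM ipsilaterally and 855 contralaterally. Calca was at 227 against 365 FPKM and Tac1 at 73.8 against 131. P2rx3 went the other way, at 231 against 134 (log2 ratio 0.78, interval of the fold 1.19 to 2.49). In cord the list of large afferent genes was higher ipsilaterally for all 6 measured genes, with a median of 0.26.

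Cord values of Ntrk3 stand beside those of dorsal horn neurons. Of 8 measured dorsal horn neuron genes, 5 were below 0, with a median of -0.25 against 0.02 for all measured features, and the summed level was 306 FPKM ipsilaterally and 420 contralaterally. Slc17a6, the vesicular glutamate transporter gene of excitatory neurons, was at 68.4 against 95.4 FPKM, the glycine transporter gene Slc6a5 at 65.4 against 104, and Gad1, an enzyme of GABA synthesis, at 45.8 against 91.8. Of the 8 genes 3 were above 0, and of these Lbx1, a dorsal horn transcription factor gene, was at 13.5 against 3.38 FPKM, at least 2-fold higher. The authors' deposited table calls Lbx1 higher and Gad1 lower. The part of these lists in the Ntrk3 difference was not tested in either tissue.

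Ntrk2, the TrkB gene (mm9 chromosome 13, 58907956 to 59231328), was at 46.0 FPKM in contralateral and 44.8 in ipsilateral DRG. In cord it was at 96.3 FPKM contralaterally and 105 ipsilaterally. Both tissues were near even, with a fold of 0.974 (interval 0.772 to 1.23) in DRG and 1.09 (0.872 to 1.36) in cord. The intervals exclude a 1.5-fold difference in either tissue but not smaller ones. Ntrk2 was the highest of the 6 genes in both cord libraries.

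Astrocytes are a known site of Ntrk2 expression. Of the 7 astrocyte genes, all measured in cord, 4 were above 0 and 3 below, with a median log2 ratio of 0.05. Gfap, the astrocyte filament gene, was at 881 FPKM ipsilaterally against 469 contralaterally, and Slc1a2, the glutamate transporter, at 628 against 721. The part of astrocytes in the Ntrk2 level was not tested.

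Because a ratio of 2 genes within a library does not depend on how the library was scaled, the Trk genes were also set against each other. Ntrk2 made up 42.0% of the summed Ntrk2 and Ntrk3 FPKM in contralateral DRG and 50.1% in ipsilateral DRG. In cord its share was 77.3% contralaterally and 84.8% ipsilaterally. Ntrk2 therefore took the larger share on the cut side in both tissues. The log2 fold of Ntrk2 minus that of Ntrk3 was 0.71 in cord, with an interval of 0.21 to 1.22, and 0.47 in DRG, with an interval of -0.11 to 1.05 that includes 0. All 10 pairs of the 5 measured members were compared this way in each tissue. In cord 1 of 10 intervals lay off 0 (Ntrk2 and Ntrk3), and in DRG 1 of 10 (Ntrk3 and Sort1, at -0.70, from -1.39 to -0.01). The intervals were not adjusted for the number of pairs.

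The summed FPKM of Ntrk2 and Ntrk3 was 109.5 in contralateral and 89.5 in ipsilateral DRG, and 125 in contralateral and 124 in ipsilateral cord. The DRG library of the cut side thus held both genes at nearly equal levels, and the cord libraries were dominated by Ntrk2.

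**Figure D3:**
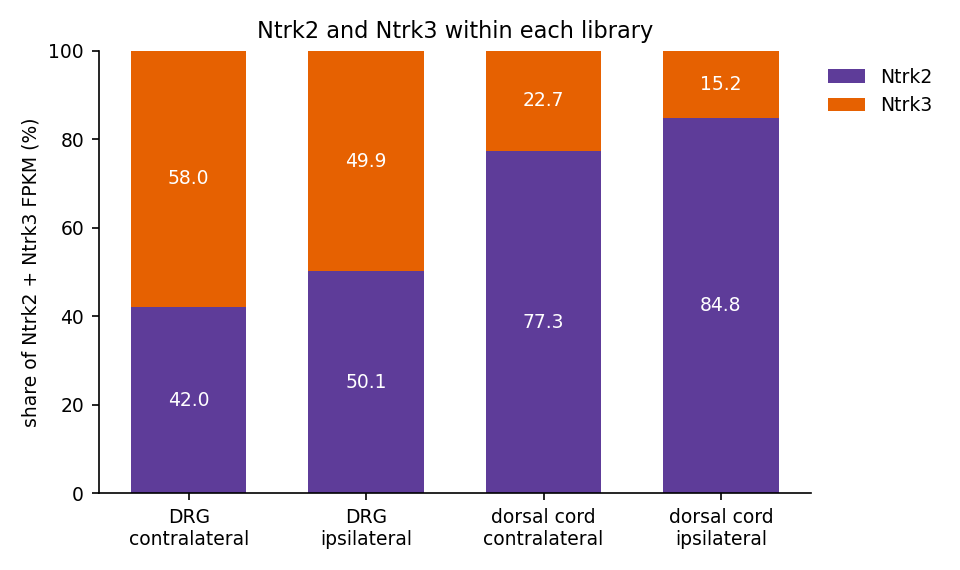
Share of the summed FPKM of Ntrk2 and Ntrk3 (percent, stacked to 100) in each of the 4 libraries. The Ntrk3 share is 58.0% contralaterally and 49.9% ipsilaterally in DRG, and 22.7% contralaterally and 15.2% ipsilaterally in cord.

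Ngfr encodes p75, a receptor of the tumour necrosis factor receptor family that many sensory neurons and non-myelinating or injured Schwann cells carry (mm9 chromosome 11, 95430139 to 95449012). It was at 191 FPKM in contralateral DRG and 134 in ipsilateral DRG, the highest of the 6 genes in both and above 98.2% and 96.9% of the features listed above 0. The fold was 0.704, and its interval of 0.492 to 1.01 just includes equal levels. The authors' deposited table gives Ngfr q = 0.319 in DRG. In cord the gene was at 1.33 FPKM contralaterally and 1.09 ipsilaterally, with a fold of 0.821 whose interval of 0.372 to 1.81 spans more than a 2-fold difference downwards. Contralateral DRG thus held 143-fold more Ngfr FPKM than contralateral cord.

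Beside Ngfr in DRG, most listed sensory neuron genes were below 0 and most listed Schwann cell genes above 0. Of 9 sensory neuron genes 7 were below 0, with a median log2 ratio of -0.39, although their summed level was 3577 FPKM ipsilaterally and 3462 contralaterally, since Tubb3 was at 976 against 621. Of 7 measured genes of repair or immature Schwann cells 6 were above 0, with a median of 0.26, and Artn was listed at 0 on both sides. Their summed level was 249 FPKM ipsilaterally and 215 contralaterally, mostly from L1cam, at 130 against 122, and Ncam1, at 64.8 against 43.1. Sox10 was at 17.7 against 16.0. The data do not show which cells these RNAs came from. All 5 measured genes of myelinating Schwann cells were above 0, with a median of 0.14 against 0.05 for all measured features. The part of either cell type in the Ngfr level was not tested.

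Sort1 encodes sortilin, which routes proteins through the secretory and lysosomal pathways, steers BDNF into regulated secretion and joins p75 in binding precursor neurotrophins (mm9 chromosome 3, 108087049 to 108164429). It was at 17.4 FPKM in contralateral and 19.8 in ipsilateral DRG, and at 82.6 in contralateral and 74.2 in ipsilateral cord. The sides were close, with a fold of 1.14 (interval 0.803 to 1.62) in DRG and 0.899 (0.627 to 1.29) in cord. Contralateral cord held 4.75-fold more Sort1 FPKM than contralateral DRG, the reverse of Ngfr. Within a library, Sort1 amounted to 0.0911 of the Ngfr level in contralateral DRG and 0.147 in ipsilateral DRG, and to 62.0 times it in contralateral cord and 67.8 times in ipsilateral cord. The partners of the precursor receptor thus stood in opposite order in ganglion and cord.

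**Figure D4:**
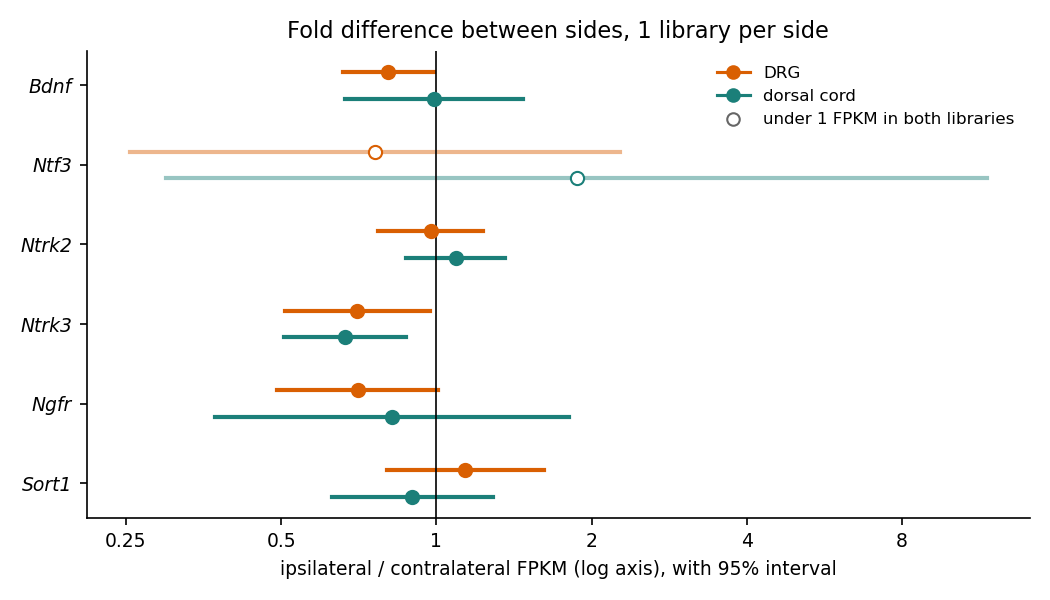
Ipsilateral over contralateral FPKM (log axis) of each gene in DRG (orange) and dorsal cord (green), with the 95% interval implied by the authors' deposited table, 1 library per side, open circles for values under 1 FPKM in both libraries. Ntrk3 has an interval below 1 in both tissues, Bdnf in DRG alone, and Ntf3 has the widest.

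From the highest to the lowest level the order in contralateral DRG was Ngfr, Ntrk3, Ntrk2, Sort1, Bdnf and Ntf3. In ipsilateral DRG Ntrk2 and Ntrk3 changed places, but their levels there were the same within 1.005-fold. In both cord libraries the order was Ntrk2, Sort1, Ntrk3, Bdnf, Ngfr and Ntf3, and the smallest gap was that of Ntrk2 over Sort1, at 1.17-fold contralaterally and 1.41-fold ipsilaterally. No spread between animals is available to say which neighbours differ.

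For each measured member the 3 features nearest in profile were found by the Euclidean distance of the log2 FPKM (1 added) over the 4 libraries, each feature centred on its own mean, among 12229 features. For Bdnf they were Mtmr6 (distance 0.03), Plekhm3 (0.06) and Serf1 (0.09), and for Ntrk2 they were Sgip1 (0.02), Zfp687 (0.04) and Deb1 (0.06). Ntrk3 was followed by Tmem74 (0.11), Ablim1 (0.13) and Fam158a (0.15), and Sort1 by Slc2a13 (0.08), Leng8 (0.09) and Shroom2 (0.10). Ngfr had no close neighbour, since the nearest were the haemoglobin genes Hba-a1 (0.45), Beta-s (0.45) and Hbb-b2 (0.71). Hba-a1 was even between sides in DRG, at 11727 FPKM contralaterally and 11578 ipsilaterally. The Ngfr fold there was 0.704, with an interval of 0.492 to 1.01. These distances rest mainly on the difference between the tissues and on 4 libraries.

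The other genes of the pathway were read from 10 lists holding 153 genes of the tables that are not members. Of 145 measured in DRG, 1 was higher on the cut side by 2-fold or more on the log2 ratio with 1 FPKM added and 1 was lower by as much, where 3.04% and 0.784% of all measured features were. With nothing added to the FPKM, 7 were at least 2-fold higher and 2 lower. Their median log2 ratio was 0.07 against 0.05 for all measured features. The authors' deposited table calls 7 of them higher and 5 lower, where it calls 4.64% and 1.9% of tested features. In cord 1 of 142 was higher by 2-fold or more with 1 FPKM added and 0 were lower, beside 4.46% and 1.64% of measured features, and the median was 0.07 against 0.02. With nothing added, 5 were at least 2-fold higher and 1 lower. The authors' deposited table calls 3 of them higher and 2 lower in cord, beside 4.52% and 1.55% of tested features.

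Ntf5, the neurotrophin-4 gene, was listed at 0 in both DRG libraries and under 1 FPKM in both cord libraries. Of the 4 other genes of the sortilin family, Sorl1 was at 30.9 against 64.0 FPKM in DRG (log2 ratio -1.03, called in the authors' deposited table), and the other 3 were above 0. In cord 0 of these 4 were called, beside 6.06% of tested features.

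Over genes of precursor cutting, its inhibitors and secretory granule cargo, the median was -0.17 for 11 in DRG and 0.10 for 11 in cord. The granin gene Scg2 was at 132 against 227 FPKM in DRG (log2 ratio -0.77), which the authors' deposited table calls. The furin gene Furin, whose enzyme cuts the precursors, was at 6.76 against 8.67 FPKM in DRG and 5.97 against 5.07 in cord, and is called in neither tissue.

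On the p75 side, the median over co-receptor and myelin ligand genes was 0.07 for 9 in DRG and 0.02 for 8 in cord. Rtn4, the Nogo gene, was at 405 against 229 FPKM in DRG (0.82), and Omg, another myelin-associated ligand, at 4.22 against 9.39 (-0.99). The 18 p75 adaptor and cleavage genes had a median of 0.13 in DRG, where 0 are called beside 6.55% of tested features, and of 0.27 in cord. In cord the p75 relative Tnfrsf19 was at 12.7 against 19.6 FPKM (-0.59), Aph1a, a gamma-secretase subunit gene, at 30.8 against 59.1 (-0.92), and Ngfrap1, a p75 adaptor gene, at 432 against 258 (0.74). The authors' deposited table calls the difference of each p75-side gene named with its values.

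On the Trk side, the median over 31 adaptor and regulator genes was 0.02 in DRG and 0.08 in cord, and that over 28 kinase cascade genes -0.07 and -0.10. Irs2, an insulin receptor substrate gene, was at 11.9 against 5.61 FPKM in DRG (0.97), Lrig1, whose product restrains receptor kinases, at 6.399 against 2.92 (0.92), and Src, a kinase, at 14.9 against 10.2 (0.50). Rps6ka1, a ribosomal S6 kinase gene, was higher on the cut side in both tissues, at 8.31 against 3.67 FPKM in DRG (0.996) and 11.5 against 3.90 in cord (1.35). Camk2b, a calcium-dependent kinase gene, was at 8.87 against 13.6 FPKM in DRG (-0.57). Among the traffic genes, the dynein chain gene Dync1i1 was at 62.5 against 83.3 FPKM in DRG (-0.41), and Hap1, which takes part in BDNF transport, at 112 against 63.0 in cord (0.82). All of these are called in the authors' deposited table.

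Genes that Trk signalling is known to induce had a median of 0.32 over 16 in DRG, with 12 above 0, and -0.12 over 14 in cord, with 6 above 0. Vgf, a gene for a secreted precursor protein that neurotrophins induce, was at 46.8 against 19.4 FPKM in DRG (1.23), and the transcription factor gene Egr1 at 12.1 against 5.53 (0.998), both called in the authors' deposited table. In cord Vgf was at 43.8 against 27.2 FPKM and is not called. Many other signals induce these genes. Regulators of Bdnf transcription had a median of 0.15 over 16 in DRG and 0.32 over 16 in cord, with 13 above 0 in each tissue. Of all measured features, 43.9% were below 0 in DRG and 48.4% in cord. Of these regulators 0 are called, where 6.55% of tested features are called in DRG and 6.06% in cord. The Bdnf log2 ratio was -0.28 in DRG and -0.01 in cord, and a link to these regulators was not tested.

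**Figure D5:**
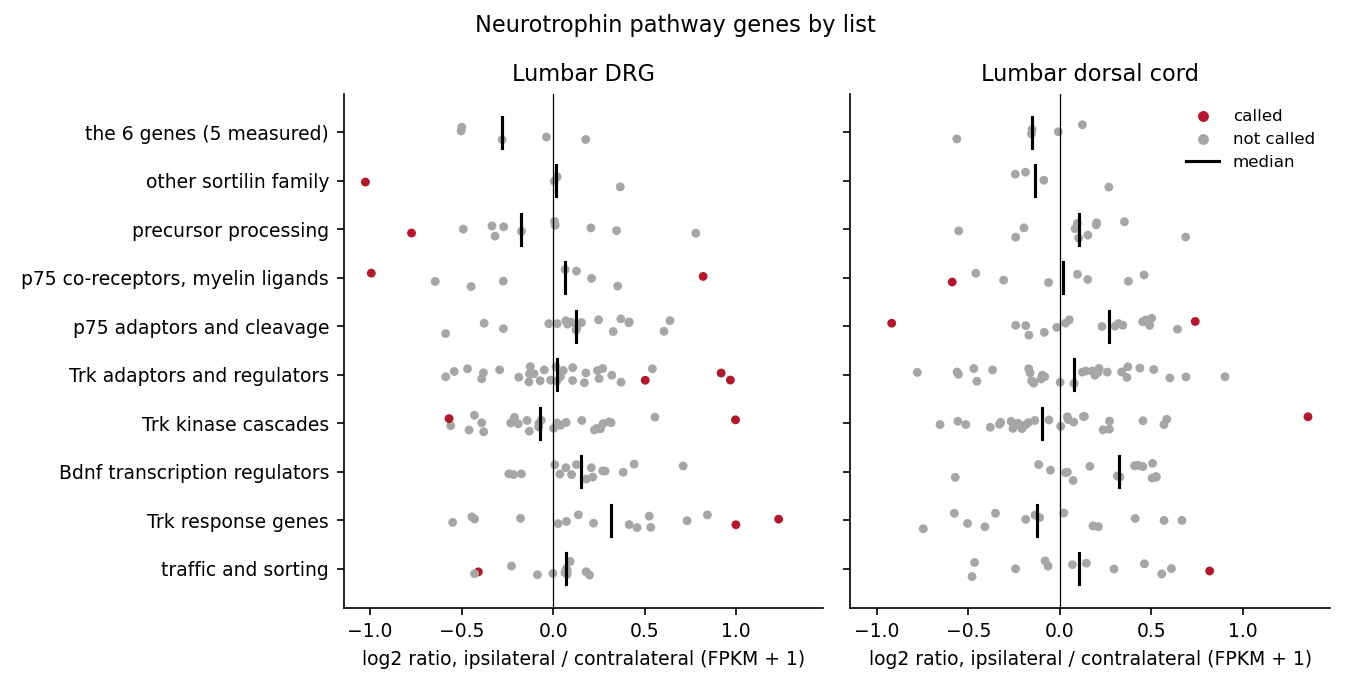
Log2 ratio of ipsilateral to contralateral FPKM (1 FPKM added) of each measured gene in the 9 pathway lists with measured genes and of the 5 measured members, in DRG and dorsal cord, with red points for genes called in the authors' deposited table and a bar at each list's median. The members' medians are -0.28 in DRG and -0.15 in cord, and none of their points is red.

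The tissue labels were checked against markers. In DRG the sensory neuron genes Prph, Uchl1 and Tubb3 stood between 621 and 1213 FPKM, and the dorsal horn genes Lbx1 and Pax2 were listed at 0 on both sides. Several other cord genes were higher contralaterally, with Slc6a5 at 0.02 FPKM ipsilaterally against 0.52 contralaterally, and Mog at 0.03 against 0.71. Lmx1b went the other way, at 0.38 against 0.08. Of 7 astrocyte genes, all measured in DRG, 4 were above 0 and 3 below, with a median log2 ratio of 0.05. The 3 below 0 are called lower ipsilaterally, beside 1.9% of tested features. Among them were Slc1a2 at 2.34 against 7.98 and Aqp4 at 2.04 against 5.10. Aldh1l1 is called higher, at 11.5 against 5.22. The part of cord tissue in the DRG libraries was not tested. In cord the astrocyte genes Gfap and Slc1a2 and the dorsal horn genes Slc17a6, Slc6a5 and Gad1 were high. The sensory genes Trpv1 and Mrgprd were listed at 0 there, and motor neuron markers summed to 5.31 FPKM ipsilaterally and 5.78 contralaterally. Fibroblast markers were higher in ipsilateral DRG, with 5 of 5 above 0 and a summed level of 679 against 350 FPKM, as were macrophage markers, with 118 against 43.7. The part of these cells in the members' DRG levels was not tested. The 3 lymphocyte and mast cell genes Cd3e, Cma1 and Cpa3 were listed at 0 in both cord libraries.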

How the data were processed

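Per the labels' protocols, a QIAGEN RNeasy kit was used for RNA and an Epicentre ScriptSeq kit for the libraries. Per the submitters' processing notes, TopHat 1.4.0, Cuffdiff 1.3.0 and the mouse build mm9 were used. Annotation, filters, strand setting and sequencing depth: not given in the sources used here. For each tissue the authors deposited 1 table, with the FPKM of each library, and the authors' p-values and q-values, which compare 1 library with 1 library. A standard error was taken as the deposited log2 fold change over the test statistic. Log2 ratios used a pseudocount of 1 FPKM, a filter of 1 FPKM in either library and a 2-fold threshold. The counting of 2-fold features was checked on simulated data without noise, which says nothing about the error of these ratios. Python 3.11.15, numpy 2.4.6 and pandas 2.3.3 were used. Alternatives were a pseudocount of 0.1 or 3 FPKM, a filter of 5 FPKM or none, median and upper-quartile rescaling, the deposited log2 fold change, and the authors' calls at q up to 0.05. The members and lists were chosen with earlier results of these data known. Named in the text are all members and 3 nearest profiles per member. Per pathway list and tissue, up to 4 genes that were 2-fold different or called by the authors are named, with the largest log2 ratios. Of the marker lists, only some of the 3 highest genes and of those at 0 are named, and of some lists none. Furin, Aif1, Spp1, cord Lbx1, cord Vgf, and DRG Mog, Lmx1b, Slc1a2 and Aqp4 were added after their values were seen. The number of other columns of per-sample values left out was 0. Some genes of the lists are not reported here and were left out of the lists. Hras and Ncmap matched no symbol of the tables.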

Additional observations from a re-analysis of the deposited data

Results flagged for a closer look

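Of the 6 members, 3 had log2 ratios of opposite sign in DRG and dorsal cord. Opposite signs were common over all features. Of all measured features, 43.9% were below 0 in DRG and 48.4% in cord. Of those measured in both tissues, 22.1% were below 0 in both. The difference between tissues was not tested because each tissue has 1 library per side. Sort1 was at 0.18 in DRG and -0.15 in cord, a difference of 0.331. Ntrk2 was at -0.04 in DRG and 0.12 in cord, a difference of -0.159. Ntf3 was at -0.14 in DRG and 0.17 in cord, a difference of -0.308, with all 4 libraries under 1 FPKM. Without the added FPKM, the interval of the difference from the deposited standard errors included 0 for Sort1 (-0.38 to 1.07), Ntrk2 (-0.63 to 0.30) and Ntf3 (-4.38 to 1.78).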

How the results depend on the processing

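No paired analysis was possible because each group has 1 library, and for the same reason no replicate could be left out. The 12 log2 ratios of the members were recomputed under 5 alternatives each. Of these 60 values, 60 moved by less than the gene's implied standard error, 0 changed sign and 0 reached 2-fold. Another pseudocount or the deposited log2 fold change cannot change the sign, so only the rescalings tested it. The standard error is also a loose yardstick for Ntf3. In cord its value went from 0.17 to 0.90 with the deposited log2 fold change, within a standard error of 1.35. The background counts depended more on the treatment of low values. In DRG, 400 features were at least 2-fold higher and 103 lower, against 679 and 259 at a pseudocount of 0.1 FPKM, 204 and 44 at 3 FPKM, and 649 and 266 by the authors' calls, and 68 lower with a filter of 5 FPKM. In cord, 595 were higher and 219 lower, against 964 and 481 at 0.1 FPKM, 264 and 81 at 3 FPKM, and 373 and 130 with a filter of 5 FPKM. The causes were not tested beyond the settings themselves. The implied standard errors (log2) were widest for Ntf3 in DRG and cord and Ngfr in cord, at 0.81, 1.35 and 0.58, where FPKM was low (the part of depth, which is not given, was not tested), against 0.15 to 0.29 for the other 9 values.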
